A study of Mus musculus with 6 samples.

Results

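The immediate-early genes Fos, Fosb, Jun, Junb, Egr1, Egr3, Ier2, Ier3, Nr4a1 and Atf3 were examined in the mouse heart. Members were chosen by name, and their probes were found by matching the RefSeq accession of each probe to the gene symbol. All 10 genes were on the array, each with 1 probe, among 20659 named genes and 39429 probes in all. Total RNA was taken from the ventricles of female C57BL/6N mice, an inbred strain, aged 21 weeks, and was hybridised to 1-colour (Cy3) Agilent arrays. In 1 group sleep had been broken up repeatedly over 5 weeks (sleep fragmented, 3 arrays), while the mice of the other group slept without disturbance (control, 3 arrays). No transgene or drug is named for either group, and the clock time of collection and the interval between the last disturbance and collection are not given in the sources used here. The comparison asked which heart genes differ in expression after chronic sleep fragmentation.

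Immediate-early genes are transcribed within minutes of a stimulus from factors that are already present in the cell, without new protein synthesis, and their transcripts are short-lived. Mitogen-activated kinases acting on serum response factor and its partners, and calcium or cyclic AMP acting on the factor CREB, are the classical routes to them. Fos and Jun family proteins pair as the transcription factor AP-1, Egr proteins are zinc finger factors, Nr4a1 is an orphan nuclear receptor, and Ier2 and Ier3 are small stimulus-induced proteins. Ier3 is a stress and survival protein rather than a DNA-binding factor. In the heart these genes are known to respond to stretch, adrenergic stimulation and ischaemia.

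The stretches of DNA just upstream of 3 of these genes are shown because Nr4a1 had the largest difference among the tested members below, Fos was measured in repeated spots, and Fosb is the closest relative of Fos in the set. They are the 250 bases before the annotated start, 5′ to 3′ in the direction of the gene, from RefSeq on GRCm38.p6. Capitals mark TGACG, the core of the site that CREB binds, and GCGNGGGCG, the Egr site, on either strand (on the opposite strand TGACG reads CGTCA).
Fos, chr12:85473640-85473889, plus strand: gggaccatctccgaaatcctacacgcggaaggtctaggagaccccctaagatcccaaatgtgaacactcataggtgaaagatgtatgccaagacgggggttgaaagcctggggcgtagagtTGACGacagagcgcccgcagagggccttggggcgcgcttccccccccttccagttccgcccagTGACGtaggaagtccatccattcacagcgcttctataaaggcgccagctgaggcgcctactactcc
Nr4a1, chr15:101266596-101266845, plus strand: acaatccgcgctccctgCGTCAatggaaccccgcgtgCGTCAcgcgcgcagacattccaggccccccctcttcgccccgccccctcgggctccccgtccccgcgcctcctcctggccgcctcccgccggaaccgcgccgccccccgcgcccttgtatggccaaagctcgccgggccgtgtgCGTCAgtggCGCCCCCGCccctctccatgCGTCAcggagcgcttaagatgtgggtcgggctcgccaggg
Fosb, chr7:19310046-19310295, minus strand: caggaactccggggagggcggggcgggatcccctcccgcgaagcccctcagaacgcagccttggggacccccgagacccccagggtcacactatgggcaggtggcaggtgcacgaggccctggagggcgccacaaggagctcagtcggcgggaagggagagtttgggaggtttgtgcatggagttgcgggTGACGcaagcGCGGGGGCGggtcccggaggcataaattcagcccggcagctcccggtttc

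The window of Nr4a1 held 4 matches to TGACG, that of Fos held 2, beginning 129 and 66 bases before the start, and that of Fosb held 1. Of the 7 members in the RefSeq table (Fos, Fosb, Jun, Junb, Ier3, Nr4a1 and Atf3), 5 held TGACG, against 17.8% of all 32851 windows of this length. The Egr site GCGNGGGCG was in the windows of Fosb and Nr4a1 and in 4.70% of all windows. The full CREB site TGACGTCA (1.55% of all windows), the AP-1 site TGANTCA (6.75%), the Nr4a1 site AAAGGTCA (1.34%) and the CArG box of serum response factor (1.47%) were in 0 of the 7. The motifs searched overlap in part, since TGACGTCA holds TGACG. A match describes the letters of the window and does not show binding. Bases further upstream were not searched, nor was any window of Egr1, Egr3 or Ier2, so a site there would be missed.

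The scanner software called 23341 (59.2%) to 28631 (72.6%) of the 39429 probes well above background. Sleep fragmented replicate 1 had the lowest number and was the dimmest array, with a 75th percentile of 123 where the others had 204 to 252. Ventricular cardiomyocyte markers were measured for 6 of the 6 genes fixed, with a summed level, in multiples of the array's 75th percentile, of 594 to 1076 in the sleep fragmented and 598 to 733 in the control group. Atrial markers (3 of 4 measured) summed to 32.5 to 297 in the sleep fragmented and 15.3 to 213 in the control group and were highest on replicate 2 of each group. Erythroid markers (4 of 4 measured) summed to 164 to 398 against 104 to 120, with no overlap. The ranges of the groups overlapped for the endothelial, fibroblast, smooth muscle, macrophage, lymphocyte, neutrophil, adipocyte and nerve lists. All arrays of a group were read in 1 scan of their own, so scan and group cannot be told apart in any difference below. The labels do not say that each sample is a different animal. The p-values therefore rest on the spread among these 6 samples, and that spread may be technical. In RNA of whole ventricle, fewer cells of a type and less RNA per cell cannot be told apart either.

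No member passed the adjusted threshold between the groups. Of the 10, 9 passed the filter on dim probes and were tested, and 0 of the 9 had an adjusted p under 0.05 by limma, where 0% of the 14555 tested genes did. An unadjusted p under 0.05 was reached by 0 members in this fit, which has no block, and by 2.96% of genes. With a change of 1.5-fold or more besides, 1.22% of genes met this in the higher and 0.728% in the lower direction. For 0 of the 9 did the arrays of the groups separate without overlap, which 3.66% of genes did with sleep fragmented higher and 3.97% with sleep fragmented lower. The median log2 fold change of the 9, sleep fragmented over control, was 0.22 and 7 were positive, beside a median of 0.05 and 58.7% positive over all tested genes. The members' median was 0.091 with 6 positive after quantile normalization and 0.015 with 5 positive after median scaling. Over all kept probes the median was 0.08 in the main setting, 0.0023 after quantile normalization and -0.13 after median scaling. These values do not show that the genes were alike in the groups, because the 95% intervals of the 9 genes have upper ends between 1.28-fold (Fosb) and 3.02-fold (Nr4a1).

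**Figure D1:**
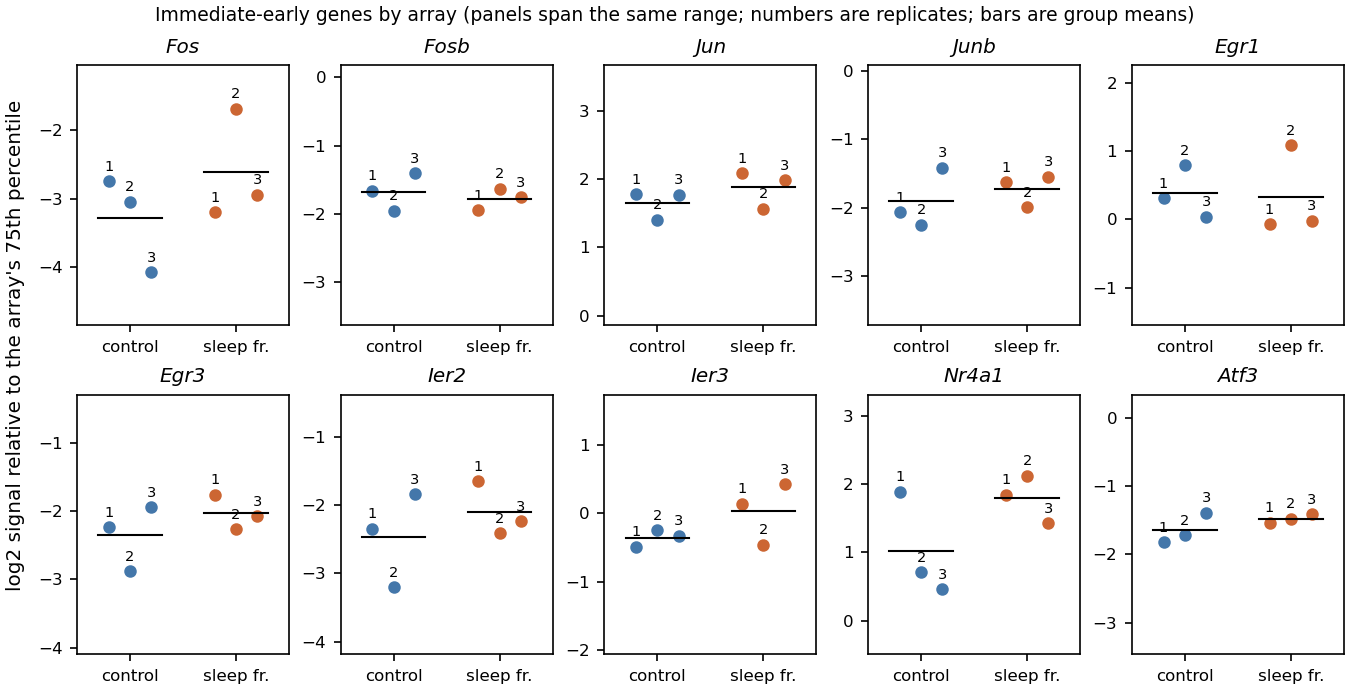
The log2 signal of each gene relative to the 75th percentile of its array (y axis), for 3 control and 3 sleep fragmented arrays (points, numbered by replicate, bars for group means), with all panels spanning the same range of log2 units. Points of the groups overlap in every panel, and sleep fragmented replicate 2 stands highest for Fos, Egr1 and Nr4a1.

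Fos, the partner that gives AP-1 its stability and activity, was near background. Its probe was spotted 10 times on each array, so the error of a single measurement is known. The mean processed signal, on the linear scale of the scanner, was 13.6, 68.5 and 26.7 on sleep fragmented replicates 1, 2 and 3. On control replicates 1, 2 and 3 it was 37.8, 29.6 and 12.6. The SD between spots of 1 array was between 2.59 and 4.38. Sleep fragmented replicate 2 was the highest of the 6 arrays. The spotting SD does not include the variation between samples or hybridisations. On sleep fragmented replicate 1 and on control replicate 3, 0 of 10 spots were well above background.

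**Figure D2:**
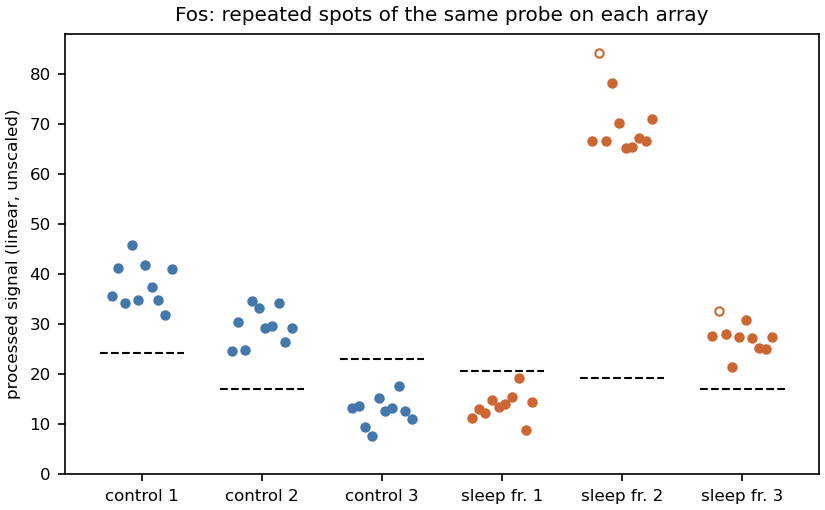
Processed signal (linear, unscaled) of the 10 Fos spots on each array, with open circles for spots left out as outliers and a dashed line at the lowest signal that was called well above background on that array. All spots of sleep fragmented replicate 2 lie at 65.2 or more, and all spots of control replicate 3 and sleep fragmented replicate 1 lie below the dashed line.

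After scaling, Fos stood at -3.20, -1.69 and -2.94 log2 units relative to the array's 75th percentile on sleep fragmented replicates 1 to 3 and at -2.74, -3.04 and -4.08 on control replicates 1 to 3. The groups overlapped, with 1 high array among the sleep fragmented and 1 low array among the controls. Because it was above background on 2 of 3 arrays of each group, Fos was left out of the main test. Fitted with all probes, it had a log2 fold change of 0.68 ± 0.47 (SE, 3 arrays per group; adjusted p = 0.830 by limma), with a 95% interval from 0.752- to 3.41-fold. Without sleep fragmented replicate 2 the log2 fold change was 0.22, without control replicate 3 it was 0.29, and with quantile normalization it was 0.37.

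The other AP-1 genes lay closer together. Fosb, which can replace Fos in the dimer, stood at -1.95, -1.63 and -1.75 on the sleep fragmented and at -1.66, -1.96 and -1.40 on the control replicates. The highest and the lowest of the 6 Fosb values were both from control arrays. Its log2 fold change was -0.10 ± 0.21 (SE; adjusted p = 0.950 by limma), with a 95% interval from 0.675- to 1.28-fold. Quantile normalization gave -0.30 and median scaling -0.31, and without control replicate 3 the value was 0.03.

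Jun, the AP-1 subunit that also drives its own gene, had values of 2.08, 1.56 and 1.98 on the sleep fragmented and of 1.78, 1.41 and 1.77 on the control replicates. Replicate 2 was the lowest array of each group. The log2 fold change was 0.22 ± 0.21 (SE; adjusted p = 0.938 by limma), with a 95% interval from 0.839- to 1.63-fold. Within the array positions, read from the barcode entry of the file headers, the Jun differences were 0.30, 0.16 and 0.21. Each position held 1 array of each group, and the arrays of a position were not taken as pairs. For every other member these differences changed sign between positions. The log2 fold change of Jun was 0.015 with median scaling and 0.10 without control replicate 2.

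Junb, a weaker activator that can oppose Jun, stood at -1.63, -2.00 and -1.55 in the sleep fragmented and at -2.07, -2.25 and -1.42 in the control group. Its log2 fold change of 0.19 ± 0.25 (SE; adjusted p = 0.943 by limma), with a 95% interval from 0.766- to 1.69-fold, became -0.01 with quantile normalization and -0.02 with median scaling. Atf3, a stress-induced factor that pairs with Jun proteins and mostly represses, was the member with the smallest spread between arrays of a group (SD 0.16). It stood at -1.54, -1.48 and -1.41 in the sleep fragmented and at -1.82, -1.72 and -1.39 in the control group. The Atf3 groups overlapped through control replicate 3 alone, and the log2 fold change was 0.17 ± 0.19 (SE; adjusted p = 0.938 by limma), 0.0048 with quantile normalization and -0.04 with median scaling. Its 95% interval ran from 0.839- to 1.51-fold.

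Egr1, a zinc finger factor induced by growth factors and mechanical load, varied more within the groups than between them. It stood at -0.07, 1.09 and -0.02 in the sleep fragmented and at 0.31, 0.79 and 0.04 in the control group. Replicate 2 was the highest array of each group, as it was for the atrial markers. The part of atrial tissue in the Egr1 values was not tested. The log2 fold change was -0.05 ± 0.33 (SE; adjusted p = 0.986 by limma), with a 95% interval from 0.572- to 1.63-fold. Its sign turned when sleep fragmented replicate 1 (0.15), sleep fragmented replicate 3 (0.13) or control replicate 2 (0.16) was left out. The within-group SD of Egr1 was 0.54, larger than that of 93.6% of the kept probes.

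Egr3, which Egr1 can induce, stood at -1.77, -2.27 and -2.08 in the sleep fragmented and at -2.24, -2.88 and -1.95 in the control group. Control replicate 2 was the lowest array. The log2 fold change was 0.32 ± 0.26 (SE; adjusted p = 0.938 by limma), with a 95% interval from 0.823- to 1.89-fold. It was 0.09 with quantile normalization and 0.06 without control replicate 2.

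Nr4a1, an orphan nuclear receptor that is controlled largely by its own transcription, had the largest difference of the tested members, and it did not pass. It stood at 1.84, 2.12 and 1.43 on the sleep fragmented and at 1.89, 0.71 and 0.46 on the control replicates. Control replicate 1 lay among the sleep fragmented arrays, and the other 2 controls lay below all of them. The log2 fold change was 0.78 ± 0.36 (SE, 3 arrays per group; unadjusted p = 0.0602 and adjusted p = 0.938 by limma), or 1.71-fold with a 95% interval from 0.972- to 3.02-fold. Without control replicate 1 it was 1.21 ± 0.27 (unadjusted p = 0.00226, adjusted p = 0.978 by limma), and without control replicate 3 it was 0.50. The Nr4a1 differences within the array positions, which match the replicate numbers, were -0.05, 1.41 and 0.97. With that position as a block the value kept its size, with an SE of 0.27, an unadjusted p of 0.0188 and an adjusted p of 0.603 by limma. With weights estimated for each array, an estimate that stopped before converging, the value was -0.14. Its within-group SD of 0.59 was larger than that of 96.2% of the kept probes.

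Ier2, a nuclear protein induced by growth factors, stood at -1.65, -2.41 and -2.24 in the sleep fragmented and at -2.34, -3.20 and -1.84 in the control group. Control replicate 2 was again the lowest array, and without it the log2 fold change of 0.36 ± 0.35 (SE; adjusted p = 0.938 by limma) was -0.0098. Quantile normalization gave 0.13, and the 95% interval ran from 0.745- to 2.21-fold.

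Ier3, a stress-induced survival protein, stood at 0.14, -0.46 and 0.43 in the sleep fragmented and at -0.49, -0.25 and -0.33 in the control group. The controls lay close together, and sleep fragmented replicates 1 and 3 were above all of them while replicate 2 was among them. The log2 fold change was 0.39 ± 0.24 (SE; adjusted p = 0.938 by limma), with a 95% interval from 0.895- to 1.92-fold, and it was 0.39 with quantile normalization. Without sleep fragmented replicate 2 it was 0.64 ± 0.21 (unadjusted p = 0.0164, adjusted p = 0.737 by limma). Without sleep fragmented replicate 3 it was 0.19, and with median scaling it was 0.18. With array weights it was 0.74 ± 0.17 (adjusted p = 0.0740 by limma), the smallest adjusted p of any member under any setting. The estimate of these weights stopped before converging.

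**Figure D3:**
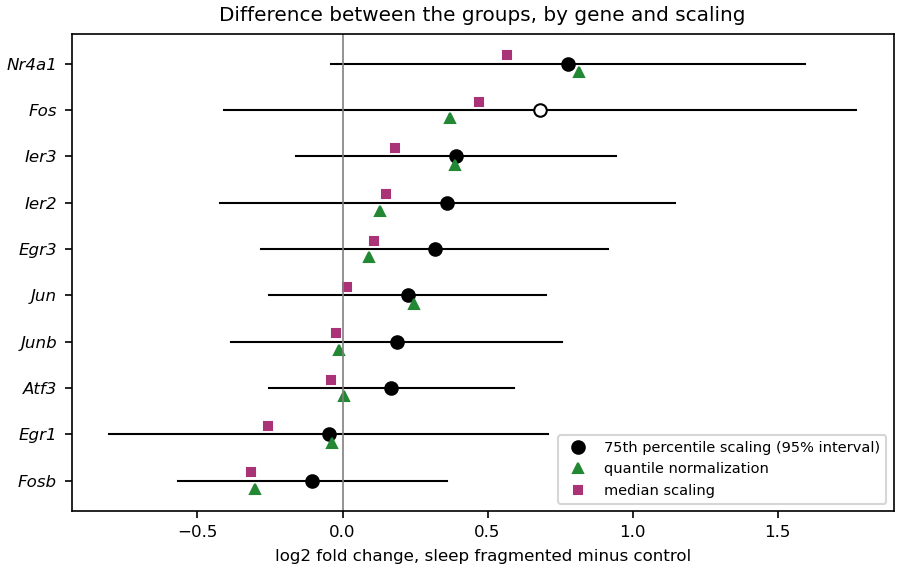
Log2 fold change, sleep fragmented minus control (x axis), of each gene with its 95% interval under scaling to the 75th percentile (circles, open for Fos, which was fitted with all probes), and the value under quantile normalization (triangles) and median scaling (squares). All intervals include 0, and the values of Junb and Atf3 change sign between scalings.

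The median of the genes with dim probes lay near that of dim probes in general. Fosb, Junb, Egr3, Ier2 and Atf3 had mean levels between -2.28 and -1.56 log2 units, a range that held 4608 kept probes. Relative to the control mean, the median of these 5 genes was 0.28, 0.05 and 0.23 on sleep fragmented replicates 1 to 3, and the median of all probes of the range was 0.39, 0.04 and 0.24. On control replicates 1 to 3 the 5 genes had medians of 0.01, -0.34 and 0.41, and the probes of the range 0.0079, -0.30 and 0.28. Fosb lay apart from the range on sleep fragmented replicates 1 and 3, at -0.27 and -0.08. Over the probes of the range the median log2 fold change was 0.22 and 82.0% were positive, against 0.08 over all kept probes. After quantile normalization the median of the 5 genes lay between -0.12 and 0.13 on every array and that of the range between -0.07 and 0.06. The part of this shared shift in the values of the 5 genes was not tested.

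**Figure D4:**
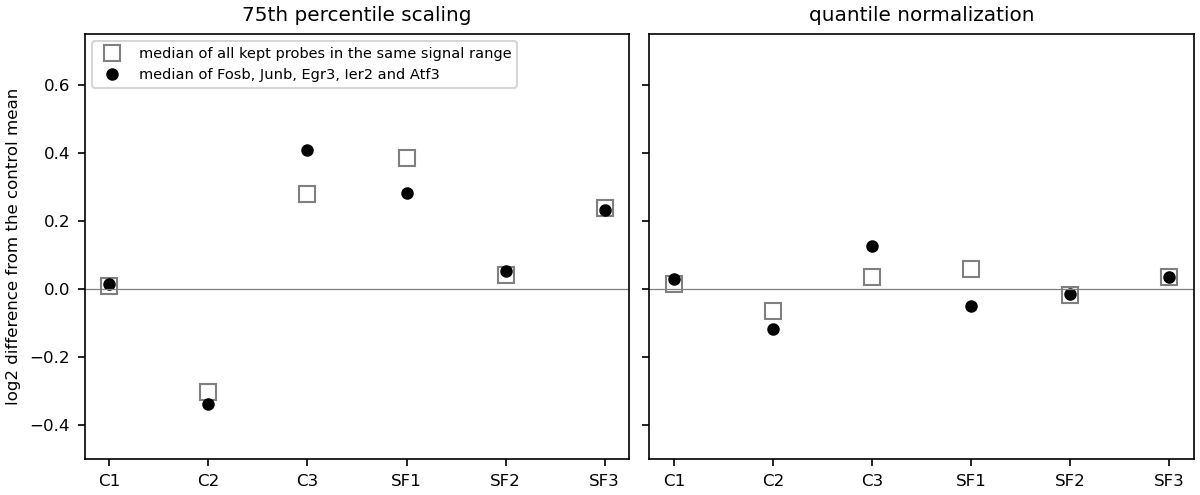
Median log2 difference from the control mean on each array (C, control; SF, sleep fragmented) for Fosb, Junb, Egr3, Ier2 and Atf3 (filled circles) and for all kept probes in the same range of signal (open squares), under scaling to the 75th percentile (left) and quantile normalization (right). The symbols lie close together on the left, lowest on C2 (-0.34 and -0.30), and between -0.12 and 0.13 on the right.

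The members did not vary as 1 group. After each group's mean was subtracted, the 45 pairs of members had a median Pearson r of 0.09 over the 6 arrays, 23 of them positive, with values from -0.96 to 0.99. These are descriptions over 6 values that share arrays and scaling. Egr3 and Ier2 were the most alike (r = 0.99, and 0.97 after quantile normalization). Fos and Egr1 came next (r = 0.85, and 0.90 after quantile normalization), both with their highest value on sleep fragmented replicate 2. Fos and Nr4a1 had r = 0.69, and Jun and Egr1 ran opposite (r = -0.96).

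Other genes of the immediate-early program, from lists of AP-1 partners, further immediate-early factors, primary response genes, upstream factors and feedback genes or targets, were compared in the same fit, and 0 genes of any list passed the adjusted threshold. Of 11 AP-1 partners 8 were positive, with a median log2 fold change of 0.15. Jdp2, a repressor that pairs with Jun, had 0.56 ± 0.26 (SE). The brighter probe of the Fos relative Fosl2 had 0.36 ± 0.21 and its other kept probe 0.53 ± 0.25. Of 11 further immediate-early transcription factors 7 were positive (median 0.12). Klf10, a Krüppel-like factor induced by TGF-beta, was the only one of them with an unadjusted p under 0.05 and a change of 1.5-fold or more. It stood at 1.72, 1.82 and 2.07 in the sleep fragmented and at 2.73, 2.81 and 2.36 in the control group, and the groups did not overlap. Its log2 fold change was -0.77 ± 0.20 (SE; unadjusted p = 0.00413, adjusted p = 0.938 by limma), and it was 1.70-fold lower. Bhlhe40, a stimulus- and clock-controlled repressor, had 0.51 ± 0.22, Klf2 had 0.42 ± 0.27 and Klf6 0.34 ± 0.20.

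Of 24 further primary response genes, which encode phosphatases, RNA-binding proteins and signal inhibitors as well as factors, 15 were positive, with a median of 0.09. Among them the clock gene Per1, also inducible by CREB, was the only one past the same limits (0.93 ± 0.25, SE; unadjusted p = 0.00481, adjusted p = 0.938 by limma). Trib1, a pseudokinase, had 0.42 ± 0.18, with its other probe at 0.32, Gadd45a, a stress sensor, had 0.42 ± 0.24 and Arc 0.26 ± 0.18. Of 19 upstream factors and kinases 9 were positive (median -0.0069). The brighter probe of Srf, serum response factor, had -0.38 ± 0.23 and its other kept probe 0.40 ± 0.42. Mapk8, a kinase that acts on Jun, had 0.36 ± 0.22. Of 8 feedback genes and targets of Egr and AP-1, 1 was positive (median -0.12): Edn1, the vasoconstrictor endothelin, with 0.31 ± 0.18.

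Sleep fragmented replicate 2, the array on which Fos, Egr1 and Nr4a1 were highest, was also the highest array for many genes of some of these lists. Of the 9 tested members, 3 were highest on sleep fragmented replicate 1, 3 on control replicate 3 and 2 on sleep fragmented replicate 2. The shares of all tested genes on these arrays were 28.4%, 12.8% and 14.2%. Highest on sleep fragmented replicate 2 were 5 of 11 AP-1 partners, 4 of 8 feedback genes or targets and 1 of 19 upstream factors and kinases. Of the 35 further immediate-early factors and primary response genes, 14 (40.0%) were highest on it, where 14.2% of all tested genes were. The share was between 31.4% and 45.7% under the other scalings and background correction, against 10.0% to 16.8% of all genes. It was the array with the most of these genes in each of these settings except median scaling, where control replicate 2 held 48.6% of them and 46.2% of all genes. Among the 14 were Errfi1, an inhibitor of the EGF receptor (3.51 there and 1.99 to 2.88 on the other arrays), and Nfkbia, the inhibitor of NF-kappaB (2.89 against 1.32 to 2.22). Gadd45g (3.03 against 1.55 to 2.58), Csrnp1 (0.19 against -0.98 to -0.27), Tiparp (1.65 against 0.86 to 0.98) and Rgs2 (2.13 against 0.96 to 1.60) were likewise highest on that array; these examples were picked with their values in view. Atrial markers (297 against 15.3 to 213), fibroblast markers (108 against 71.5 to 93.9), macrophage markers (19.1 against 9.30 to 13.4), smooth muscle markers (24.4 against 10.8 to 19.9) and nerve markers (2.37 against 1.16 to 1.88) were also highest on that array. Ventricular cardiomyocyte markers were lowest on it (594 against 598 to 1076), as were endothelial markers (29.8 against 35.6 to 44.7). Lymphocyte, neutrophil, erythroid and adipocyte markers were neither highest nor lowest on it. The part of these cell types in the values above was not tested.

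**Figure D5:**
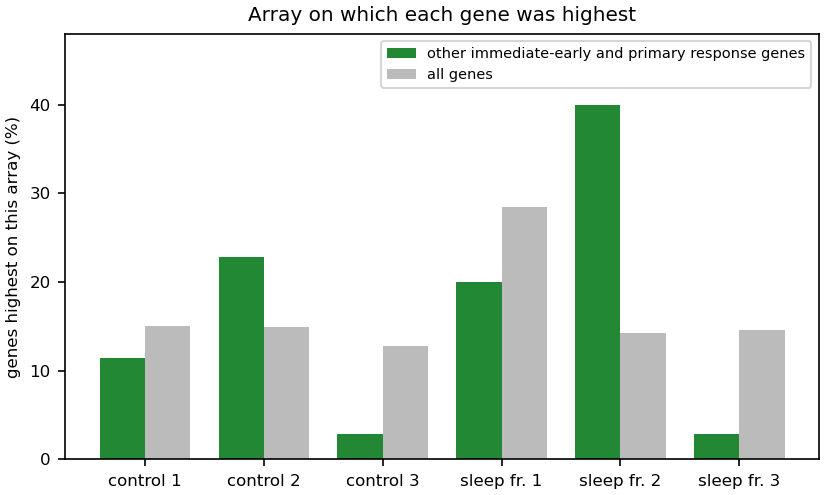
Percent of genes whose highest value was on each array (bars from 0), for 35 other immediate-early and primary response genes and for all tested genes without a missing value, under scaling to the 75th percentile. Sleep fragmented replicate 2 holds 40.0% of the former and 14.2% of the latter.

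The genes whose pattern over the 6 arrays was most like the mean of the 9 tested members were Klri1, Olfr512, Gls2, Olfr357 and Cda, with Pearson r between 0.996 and 0.999 among 13788 genes compared, over 6 arrays that share their scaling. Their values resemble those of the dim range above, with the lowest value of each on control replicate 2. Of the members, Egr3 (r = 0.94) and Ier2 (r = 0.90) followed that mean most closely, and Egr1 (r = -0.59) and Nr4a1 (r = 0.29) did not follow it. Each member is itself part of that mean, so its r is not independent of it.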

How the data were processed

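Spot intensity values were deposited as scanner output, 1 file per array, made with Feature Extraction 11.0.1.1 per the file headers (10.5.1.1 per the submitters' processing notes). The processed signal is background-subtracted, per the file headers. The deposited series table holds log2 values whose scaling is not stated in it: each column had a median of 5.53 and r of at least 0.998 with its own array. Its columns thus share a median, and the rest of their distributions was not compared. Flags for outliers and for spots well above background were used as deposited by the authors' scanner software.

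Control spots and outliers were left out, spots of a probe were averaged, and log2 signals were set relative to the array's 75th percentile. A probe was kept if all arrays of either group had it well above background (25228 of 39429), and the brightest kept probe stood for a gene. Groups were compared with limma 3.58.1 (lmFit, eBayes, Benjamini-Hochberg over all kept probes, two-sided) in R 4.3.3. On simulated data with 50 changed probes, this comparison called 0 at 1.5-fold, 5 at 2-fold, 24 at 3-fold and 41 at 5-fold. Of the probes, 27234 (69.1%) were named through RefSeq. For normexp the median spot signal was used, in place of the planned mean signal. The number of arrays limits the precision.

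The members and lists were chosen with earlier results of these data known. Genes named by rule were every member, called genes and up to 4 genes of smallest unadjusted p from each list. The 5 genes most like the members were named too. Errfi1, Nfkbia, Gadd45g, Csrnp1, Tiparp and Rgs2 were named outside the rule, as examples picked with their values in view.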

Additional observations from a re-analysis of the deposited data

How the results depend on the processing

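Under every alternative run, 0 members passed the adjusted threshold in limma (smallest adjusted p 0.0740, Ier3 with array weights, whose estimate stopped before converging). Fos stayed positive wherever it was fitted. The count of members with an unadjusted p under 0.05 and a change of 1.5-fold or more went from 0 to 1 with quantile normalization, the authors' table and the replicate block (Nr4a1) and with array weights (Ier3), and was 0 to 1 when 1 array was left out (Ier3 without sleep fragmented replicate 2, Nr4a1 without control replicate 1). Junb turned to -0.012 with quantile normalization and the authors' table, to -0.024 with median scaling and to -0.22 with no scaling. Atf3 turned to -0.041 with median scaling and -0.23 with no scaling. With no scaling Jun turned to -0.18, Egr3 to -0.084, Ier2 to -0.040 and Ier3 to -0.011, leaving 1 of the 9 tested members positive (Nr4a1). Median scaling and no scaling differ from the main setting by a constant for each array. They moved the median over all kept probes from 0.08 to -0.13 and -0.32. Fosb turned to 0.060 with normexp and Nr4a1 to -0.14 with array weights; the causes were not tested. Leaving out 1 array, Egr1 ranged from -0.43 to 0.16, Ier2 from -0.0098 to 0.67 and Fosb from -0.25 to 0.030.

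Probes past the adjusted threshold went from 0 (735 at an unadjusted p under 0.05 by limma) to 69 with no scaling, 3 with normexp, 4 with the replicate block and 53 with array weights, whose estimate stopped before converging. Probes with an unadjusted p under 0.05 and a change of 1.5-fold or more went from 486 to 1374 with no scaling, 179 with normexp, 1413 with no filter, 848 with the replicate block and 1266 with array weights, and ranged from 408 to 2713 when 1 array was left out (1095 without sleep fragmented replicate 2, 2713 without control replicate 3). Median scaling moved the list medians to -0.055 (AP-1 partners), -0.092 (further immediate-early factors), -0.12 (primary response), -0.22 (upstream) and -0.33 (feedback and targets), and the members' median to 0.015. Quantile normalization and the authors' table gave a members' median of 0.091. No scaling moved the list medians to -0.25, -0.28, -0.31, -0.41 and -0.52, and the members' median to -0.18. The median over all kept probes moved as well, from 0.08 to -0.13 with median scaling and to -0.32 with no scaling. Array weights gave 0.046 for AP-1 partners and -0.12 for further factors. Leaving out 1 array, the medians ranged from 0.10 to 0.40 (members), 0.11 to 0.22 (AP-1 partners), 0.069 to 0.28 (further factors), 0.00068 to 0.15 (primary response), -0.05 to 0.02 (upstream) and -0.20 to -0.02 (feedback and targets). Same-numbered arrays had correlations of deviations of 0.06, 0.55 and 0.21, and 2 of 6 arrays correlated best with their own number, so the numbers were not taken as pairs. The array positions were read from the barcode entry of the file headers. These positions match the replicate numbers but come from separate scans of the groups, so a block by position is the same fit as the replicate block.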
